A study of Mus musculus with 8 samples.

Results

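The Stard genes encode lipid carriers that move sterols, phospholipids or other lipids between membranes, and 10 of them were present in the gene table of bEnd3 cells, an established line of mouse brain endothelial cells. They are Stard3, Stard3nl, Stard4, Stard5, Stard6, Stard7, Stard8, Stard9, Stard10 and Stard13, taken by name through GENCODE M21 symbols from 35852 genes. The list was chosen by its log2 fold changes between these same groups, already known when it was drawn up, so its values are given as a description and no p-value is attached to a member. Gene expression was measured by RNA sequencing of poly(A)-selected, directional libraries. The corticosterone group (n = 4 libraries) received 5 µM of corticosterone, the main glucocorticoid of rodents, for 24 h, and the medium group (n = 4 libraries) received culture medium for the same time, per the series' design. No vehicle is named for either group, and the treatment protocol filed with the medium libraries also names corticosterone, so their group rests on the treatment label. Every library came from the same line, grown in DMEM with fetal calf serum, and the labels do not say whether replicates were separate cultures, so the p-values below measure the spread between these libraries, which may be technical.

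The START domain is a lipid-binding fold with a deep pocket that shields 1 lipid molecule from water while it crosses the cytosol. The family divides by cargo and by the other domains attached to the fold. Cholesterol carriers include Stard3, Stard4 and Stard5, phospholipid carriers include Stard7 and Stard10, and Stard8 and Stard13 join the fold to a domain that switches off small GTPases, regulators of actin tension and of endothelial junctions. Stard3nl is named for its likeness to the membrane-anchor region of Stard3 and has no START domain of its own. These proteins are known for roles in endosomal and plasma membrane cholesterol, in the supply of phosphatidylcholine to mitochondria and in the restraint of actin contraction.

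The libraries held between 1.97e+07 and 4.62e+07 estimated counts in the gene table. In corticosterone replicates 1 and 2, the listed effective length equals the transcript length plus 1 in 100% of 61001 transcripts of at least 1000 nt, and in the other 6 libraries in 0%, so these 2 libraries were quantified with another setting and each result below is also given for the 6 libraries alike. The 4 glucocorticoid response genes listed as a check (Fkbp5, Per1, Tsc22d3 and Sgk1) were all higher in the corticosterone libraries, by 6.83-, 4.42-, 3.87- and 2.35-fold. Like every list here, they were chosen with earlier results of these data known. All 14 endothelial markers passed the filter on low counts, and 7 were called higher and 5 lower, beside 19.5% and 20.6% of all tested genes. In the 6 libraries alike, 6 were called higher and 5 lower. The summed per-length level of the endothelial markers was 4469 to 6019 TPM with corticosterone and 5281 to 5671 TPM in medium. Pericyte and smooth muscle markers summed to 0.75 to 1.32 TPM against 0.90 to 2.12 TPM. Fibroblast markers summed to 1.40 to 2.27 TPM against 5.52 to 6.71 TPM. Most of the fibroblast sum was Pdgfra, with means of 1.23 TPM with corticosterone and 4.84 TPM in medium. Pdgfra and Col1a1 were called lower on counts, and Col1a2, Dcn and Lum did not pass the filter. The neural marker sums were 0.81 to 1.52 TPM against 1.32 to 3.29 TPM, with Aqp4 and Syt1 at 0. Gfap, the only neural marker that passed the filter, had means of 0.61 TPM with corticosterone and 1.53 TPM in medium. On counts Gfap lay the other way, at 0.495 CPM with corticosterone and 0.241 CPM in medium, and was not called. The myeloid sums were 16.9 to 26.1 TPM against 26.5 to 30.5 TPM, with the microglial marker P2ry12 at 0. Most of the myeloid sum was Cd68, with means of 22.7 and 27.5 TPM, which was not called on counts. Ptprc, Aif1 and Csf1r had group means of at most 0.36 TPM. The sums for steroid-producing and liver cells were 0.46 to 2.05 TPM against 0.72 to 2.25 TPM, with Alb at 0. The part of these marker differences in the Stard results was not tested.

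Promoter sequence is shown for the 2 members with the largest fold differences, Stard5 and Stard8, and for the 2 members whose promoter window held a searched motif, Stard3 and Stard10. The sequences come from the RefSeq promoter table of build GRCm38.p6, which covered 7 of the 10 members. Each run is on the + strand, reads 5′ to 3′ and ends just before the first base in its window annotated as an exon of the gene. The Stard8 run lies inside the annotated gene, chrX:99003248-99074728. Stard5 is shown from chr7:83631767-83631958, Stard8 from chrX:99042331-99042580, Stard3 from chr11:98358118-98358367 and Stard10 from chr7:101316836-101317085. Capitals mark a motif match.
Stard5: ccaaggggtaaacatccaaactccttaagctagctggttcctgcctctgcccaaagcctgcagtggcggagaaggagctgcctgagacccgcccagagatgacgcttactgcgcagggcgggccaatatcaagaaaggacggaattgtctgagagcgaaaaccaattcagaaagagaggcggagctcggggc
Stard8: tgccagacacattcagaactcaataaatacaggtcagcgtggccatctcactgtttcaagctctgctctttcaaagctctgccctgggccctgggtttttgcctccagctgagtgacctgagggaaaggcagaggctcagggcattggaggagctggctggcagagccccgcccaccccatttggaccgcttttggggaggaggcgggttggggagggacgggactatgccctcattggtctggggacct
Stard3: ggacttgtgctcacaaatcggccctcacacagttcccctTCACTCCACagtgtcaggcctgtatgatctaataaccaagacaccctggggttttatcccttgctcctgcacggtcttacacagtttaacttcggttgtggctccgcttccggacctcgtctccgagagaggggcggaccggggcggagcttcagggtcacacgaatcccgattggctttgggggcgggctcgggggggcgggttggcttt
Stard10: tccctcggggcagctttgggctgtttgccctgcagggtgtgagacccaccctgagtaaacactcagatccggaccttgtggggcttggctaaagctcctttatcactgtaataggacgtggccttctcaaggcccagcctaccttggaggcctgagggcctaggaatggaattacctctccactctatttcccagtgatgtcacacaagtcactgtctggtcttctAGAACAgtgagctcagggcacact

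Both strands of each 300-base window (250 bases before the start site and 50 after it) were searched for 4 motifs. The full palindromic glucocorticoid element, which is AGAACA and TGTTCT with 3 free bases between, occurred in 0.00913% of all 32851 promoters and in none of the 7 members' windows. Its 6-base arm AGAACA, which is part of the palindrome, occurred in 18.97% of all promoters and among the members in Stard10 alone, 24 bases before the start site. The cAMP element TGACGTCA occurred in 1.79% of promoters and in no member. The sterol element core TCACNCCAC occurred in 1.24% of promoters and among the members in Stard3 alone, 211 bases before the start site. The other 5 windows, Stard5 and Stard8 included, held none of these letters, which says nothing of binding outside or inside the window. The Stard5 window also lies in an exon of Gm16638 and the Stard3 window in an exon of 1700003D09Rik. The Stard8 start site used here is that of the transcript Stard8-201, which received 97.4% to 99.1% of the gene's estimated counts in each library. The Stard10 start site is that of Stard10-202, which received only 2.54% to 9.63% of the Stard10 counts in the 6 libraries alike. The Stard5 start site lies 1 base from that of Stard5-205, a retained-intron form at 5.69% to 11.0% in those libraries.

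Levels are given as CPM, a gene's estimated counts per 1000000 counts of the library after scaling. All 10 members passed the filter on low counts, and 9 had a higher mean with corticosterone. By edgeR's quasi-likelihood test at an adjusted p under 0.05, 6 were called higher (Stard3, Stard4, Stard5, Stard8, Stard9 and Stard13) and 0 lower, beside 19.5% of the 13272 tested genes called higher and 40.1% called in either direction. At an unadjusted p under 0.05, 6 were higher and 1, Stard7, was lower, and DESeq2 also called 0 lower. Nothing is read from these counts, because the members were chosen with the comparison known. The same 6 genes were called higher in the 6 libraries alike, beside 18.4% of genes called higher and 36.4% called in either direction there. In 5 members (Stard3, Stard4, Stard5, Stard8 and Stard13) each corticosterone library was above each medium library, beside 19.3% of tested genes separated in that direction and 39.9% in either. The median log2 fold change of the members was 0.18 (0.23 in the 6 libraries), and that of all tested genes was -0.00. On TPM recomputed with 1 effective length, limma called 0 members (1 at an unadjusted p under 0.05), Stard4 (-0.11) and Stard9 (-0.12) lay below 0, and the median of all genes was -0.16. In these bulk samples, less RNA per cell and fewer cells of a type cannot be told apart.

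**Figure D1:**
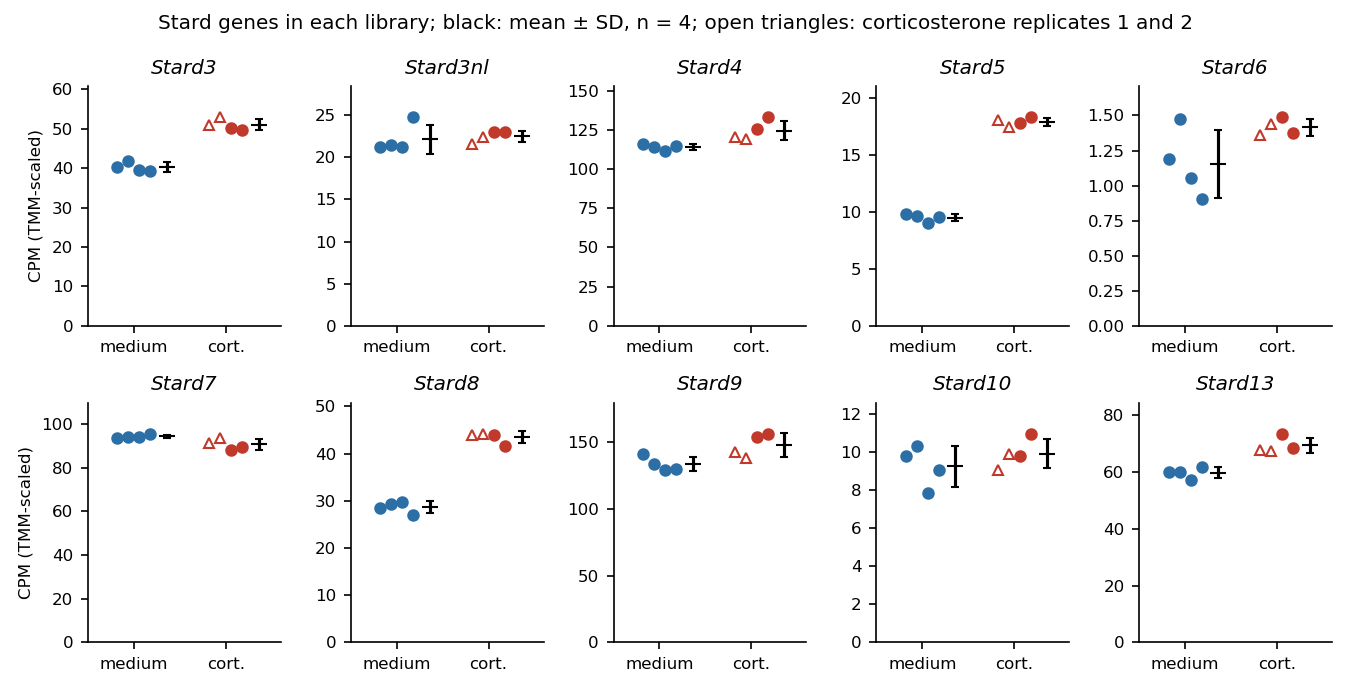
CPM (vertical axes starting at 0) of each Stard gene in the 4 medium and the 4 corticosterone libraries, 1 panel a gene. Points are libraries, open points are corticosterone replicates 1 and 2, and bars are means; Stard5 sits at 17.5 to 18.3 CPM with corticosterone and 9.04 to 9.86 CPM in medium.

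Levels of different genes were set side by side only after dividing counts by length. In medium, the per-length level recomputed with 1 effective length per transcript put Stard7 first, at 48.6 ± 2.03 TPM (SD, n = 4), followed by Stard4 at 44.7 ± 4.95 TPM and Stard3 at 44.5 ± 2.56 TPM. Stard3nl stood at 30.3 ± 2.28 TPM, Stard13 at 24.1 ± 0.78 TPM, Stard9 at 17.3 ± 1.21 TPM and Stard10 at 15.3 ± 3.13 TPM. The low end was Stard8 at 10.2 ± 0.93 TPM, Stard5 at 9.22 ± 0.59 TPM and Stard6, a gene known mainly from male germ cells, at 2.37 ± 0.65 TPM. The library ranges of the neighbours Stard7 and Stard4, Stard4 and Stard3, Stard9 and Stard10, and Stard8 and Stard5 overlapped, and those of the other neighbouring pairs of members did not. With corticosterone this measure moved with how reads were assigned among transcripts: Stard7 ran from 42.6 to 77.5 TPM while its CPM ran only from 88.1 to 93.6. A second measure, CPM per kilobase with 1 length per gene, was therefore added after the data were seen.

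On that second scale the members together summed to 168, 171, 172 and 173 CPM per kilobase with corticosterone and to 152, 153, 147 and 153 in medium, and the groups did not overlap. With 1 effective length per transcript, the planned measure, the same total ran from 220 to 279 TPM with corticosterone and from 230 to 259 TPM in medium. On that measure the groups overlapped. Stard3, Stard4 and Stard7 held the 3 highest places in both groups. Stard3 stood at 25.9 ± 0.758 CPM per kilobase in medium, below Stard7 at 34.8 ± 0.316, and at 32.8 ± 0.895 with corticosterone, where Stard7 was at 33.4 ± 0.872. Stard5 went from 4.82 ± 0.172 to 9.07 ± 0.183 CPM per kilobase and Stard8 from 6.32 ± 0.277 to 9.58 ± 0.275, which placed both next to Stard10 (10.3 ± 0.813) and Stard9 (10.7 ± 0.642) with corticosterone.

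**Figure D2:**
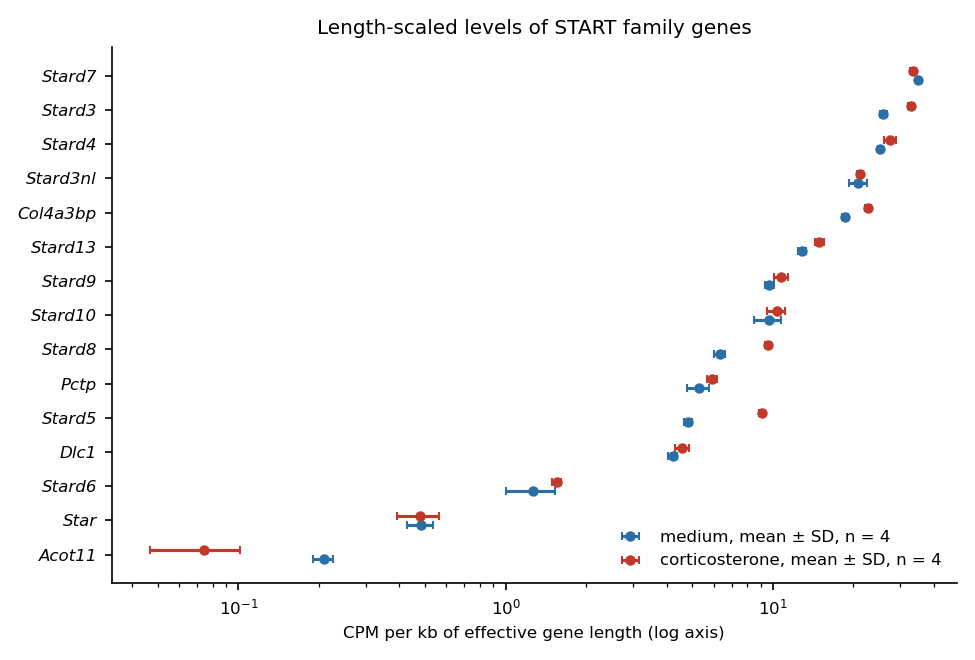
Length-scaled level (CPM per kilobase of effective gene length, log axis) of the Stard genes and of 5 other genes with a START domain. Points are means and bars are SD over 4 libraries a group; Stard5 and Stard8 show the widest gap between groups among the Stard genes, and Stard7 and Stard3nl nearly coincide.

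Among the cholesterol carriers, Stard5, a soluble protein that binds cholesterol and is known from macrophages, liver and kidney, differed most. Stard5 (ENSMUSG00000046027.17, chr7:83631959-83653127, + strand) was at 18.1, 17.5, 17.8 and 18.3 CPM in corticosterone replicates 1 to 4 and at 9.86, 9.61, 9.04 and 9.55 CPM in medium. The lowest corticosterone library was above the highest medium library by a margin far wider than either group's spread, with means of 17.9 ± 0.361 and 9.51 ± 0.340 CPM (SD, n = 4). Its log2 fold change was 0.91 ± 0.05 (SE), or 1.88-fold, and 0.92 in the 6 libraries. Of its 31-base stretches, 98.0% occurred in no other gene's transcripts. The antisense neighbour Il16, an interleukin precursor, was at 0.622 ± 0.160 CPM with corticosterone and 1.83 ± 0.238 CPM in medium, so its values lay in the opposite order and far below those of Stard5. Which strand setting the counting used is not stated.

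Stard3, a late endosomal protein that tethers endosomes to the endoplasmic reticulum and moves cholesterol between them, was also higher. Stard3 (ENSMUSG00000018167.10, chr11:98358368-98381112, + strand) was at 51.0, 52.9, 50.1 and 49.7 CPM with corticosterone and at 40.3, 41.9, 39.5 and 39.3 CPM in medium. The groups did not overlap, and the log2 fold change was 0.34 ± 0.03 (SE), or 1.27-fold. Stard3nl (chr13:19357676-19395795, - strand), its late endosomal relative that also binds the VAP anchors, ranged from 21.6 to 22.9 CPM with corticosterone and from 21.2 to 24.7 CPM in medium. The ranges overlapped, and its log2 fold change was 0.02 ± 0.06.

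Stard4, a soluble cholesterol carrier whose gene is a classical target of the sterol-sensing SREBP factors, showed a smaller difference. Stard4 (chr18:33199355-33213862, - strand) was at 120, 119, 126 and 133.0 CPM with corticosterone and at 116, 114, 112 and 115 CPM in medium. The groups stood apart, but corticosterone replicates 1 and 2 lay close to the medium range and replicates 3 and 4 above it. Its log2 fold change was 0.13 ± 0.03 over all libraries and 0.18 in the 6 libraries, and its call ended when library size alone was used for scaling (0.10).

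Stard6 (chr18:70472454-70501066, + strand), which is grouped with Stard4 and Stard5 by sequence, was near the lower end of detection. It received 38 to 49 estimated counts in the corticosterone libraries and 21 to 56 in medium, and its means were 1.42 ± 0.059 and 1.16 ± 0.241 CPM. The log2 fold change of 0.29 ± 0.19 was not called. Only 64.0% of its 31-base stretches were unique to it, 663 being shared with Gm9795, so its counts are uncertain. The antisense gene 4930503L19Rik at the same locus was at 42.8 CPM with corticosterone and 46.01 CPM in medium, far above Stard6.

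The phospholipid carriers showed little difference. Stard7, which carries phosphatidylcholine to mitochondria, was at 91.3, 93.6, 88.1 and 89.5 CPM with corticosterone and at 93.5, 94.1, 93.8 and 95.5 CPM in medium. Its libraries overlapped only through corticosterone replicate 2, and it was the 1 member with a lower mean (log2 fold change -0.06 ± 0.03, or 0.962-fold). Stard7 (chr2:127270218-127298932, + strand) was not called over all libraries, and was called lower with a term for corticosterone replicates 1 and 2 (-0.09) and with library size alone (-0.09). Stard10 (chr7:101317086-101346626, + strand), which carries phosphatidylcholine and phosphatidylethanolamine, ranged from 9.08 to 11.0 CPM with corticosterone and from 7.84 to 10.3 CPM in medium. These ranges overlapped in part, and the log2 fold change was 0.10 ± 0.09, not called.

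The members with a GTPase-activating domain both rose. Stard8, also known as Dlc3, a GTPase-activating protein of cell contacts, was at 44.0, 44.2, 44.1 and 41.6 CPM with corticosterone and at 28.5, 29.4, 29.8 and 27.0 CPM in medium. Stard8 (ENSMUSG00000031216.13, chrX:99003248-99074728, + strand) thus had the second largest difference of the family, with no overlap, a log2 fold change of 0.60 ± 0.04 and a 1.52-fold difference. Replicate 4 was the lowest library in each group. Stard13, or Dlc2, a GTPase-activating protein of endothelium and other tissues, was at 68.0, 67.6, 73.5 and 68.6 CPM with corticosterone and at 60.2, 60.03, 57.2 and 62.0 CPM in medium. The groups of Stard13 (chr5:151037510-151233836, - strand) did not overlap, and the log2 fold change was 0.21 ± 0.04, or 1.16-fold. The same-strand gene Gm42906 overlaps it and shares 302 31-base stretches with it, but held only 0.037 CPM with corticosterone and 0.069 CPM in medium.

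Stard9, a very large kinesin motor that carries a START domain and acts at spindle poles, had the highest CPM of the family, partly a matter of its length. It was at 143, 138, 154 and 156 CPM with corticosterone and at 141, 133, 129 and 129.7 CPM in medium. Medium replicate 1 lay above corticosterone replicate 2, so the groups overlapped, and the log2 fold change was 0.15 ± 0.04 over all libraries and 0.22 in the 6 libraries. Its call ended without corticosterone replicate 3 (0.13), without medium replicate 3 (0.13), without medium replicate 4 (0.13) and with library size alone (0.12). The antisense neighbour of Stard9 (chr2:120629121-120731895, + strand), Cdan1, was at 43.6 CPM with corticosterone and 43.8 CPM in medium.

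Of the 6 other genes with a START domain, 5 were tested, and 1 rose and 1 fell, beside 40.1% of all tested genes called (2 rose and 1 fell in the 6 libraries). The median log2 fold change of the 5 was 0.12. Col4a3bp, which encodes the ceramide transporter CERT, rose from 76.6 to 80.7 CPM in medium to 93.7 to 99.4 CPM with corticosterone (log2 fold change 0.29 ± 0.03, edgeR adjusted p = 3.53e-06). Acot11, an acyl-CoA thioesterase with a START domain, fell from 0.754 to 0.920 CPM to 0.158 to 0.433 CPM, on 15 to 41 estimated counts a library in medium and 5 to 12 with corticosterone (0.355-fold, edgeR adjusted p = 0.0016). Pctp, the founding phosphatidylcholine transfer protein, was at 14.1 ± 0.598 CPM against 12.5 ± 1.19 CPM (log2 fold change 0.17 ± 0.07, edgeR adjusted p = 0.0712), and without medium replicate 4 the adjusted p was 0.00771. Dlc1, the third of the GTPase-activating group, was at 26.5 ± 1.61 CPM against 24.4 ± 0.972 CPM (log2 fold change 0.12 ± 0.05, edgeR adjusted p = 0.0835), with an adjusted p of 0.0270 without corticosterone replicate 1 and 0.0115 in the 6 libraries. Star, the mitochondrial cholesterol importer of steroid-producing cells, was at 1.76 ± 0.314 CPM against 1.77 ± 0.199 CPM, with an edgeR adjusted p of 0.969. Acot12 had 1 count in corticosterone replicate 1 and 0 in the other libraries.

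**Figure D3:**
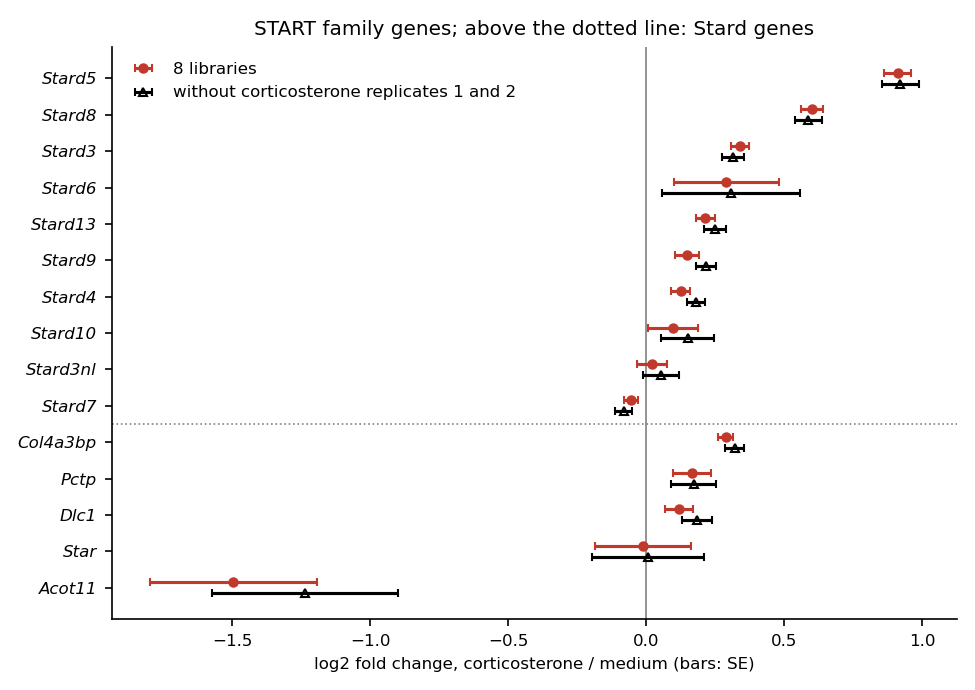
Log2 fold change, corticosterone minus medium, of the Stard genes and the 5 other tested START domain genes, over all 8 libraries and over the 6 libraries quantified alike. Bars are SE and the vertical line is 0; Stard5 (0.91) and Stard8 (0.60) lie farthest to the right, and Acot11 lies farthest to the left.

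Transcript assignment differed most in the 2 libraries quantified differently, so transcript shares were read mainly from the other 6. Stard10-204 received 58.9% of the Stard10 estimated counts in corticosterone replicate 1 and 0 in every other library, while Stard10-201 received 7.81% there and 68.6% to 99.1% elsewhere. Stard3nl-206, a retained-intron form, received 47.4% in corticosterone replicate 2 and at most 3.75% elsewhere. Gene totals did not follow these shifts: Stard10 and Stard3nl stayed at 9.08 and 22.4 CPM in those libraries, within the range of the rest.

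Among the 6 libraries alike, Stard7-202 received 92.9% to 96.7% of the Stard7 counts and Stard3nl-201 80.7% to 85.2% of the Stard3nl counts. The long forms of Stard13 varied within groups: Stard13-202 received 34.0% and 45.6% in corticosterone replicates 3 and 4 and from 24.9% to 63.7% in medium. Stard9 was split between the coding form Stard9-206, at 32.8% to 47.6%, and Stard9-203, annotated for nonsense-mediated decay, at 43.2% to 56.6%, in these 6 libraries. For each of these transcripts, the range of the 2 corticosterone libraries overlapped that of medium.

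**Figure D4:**
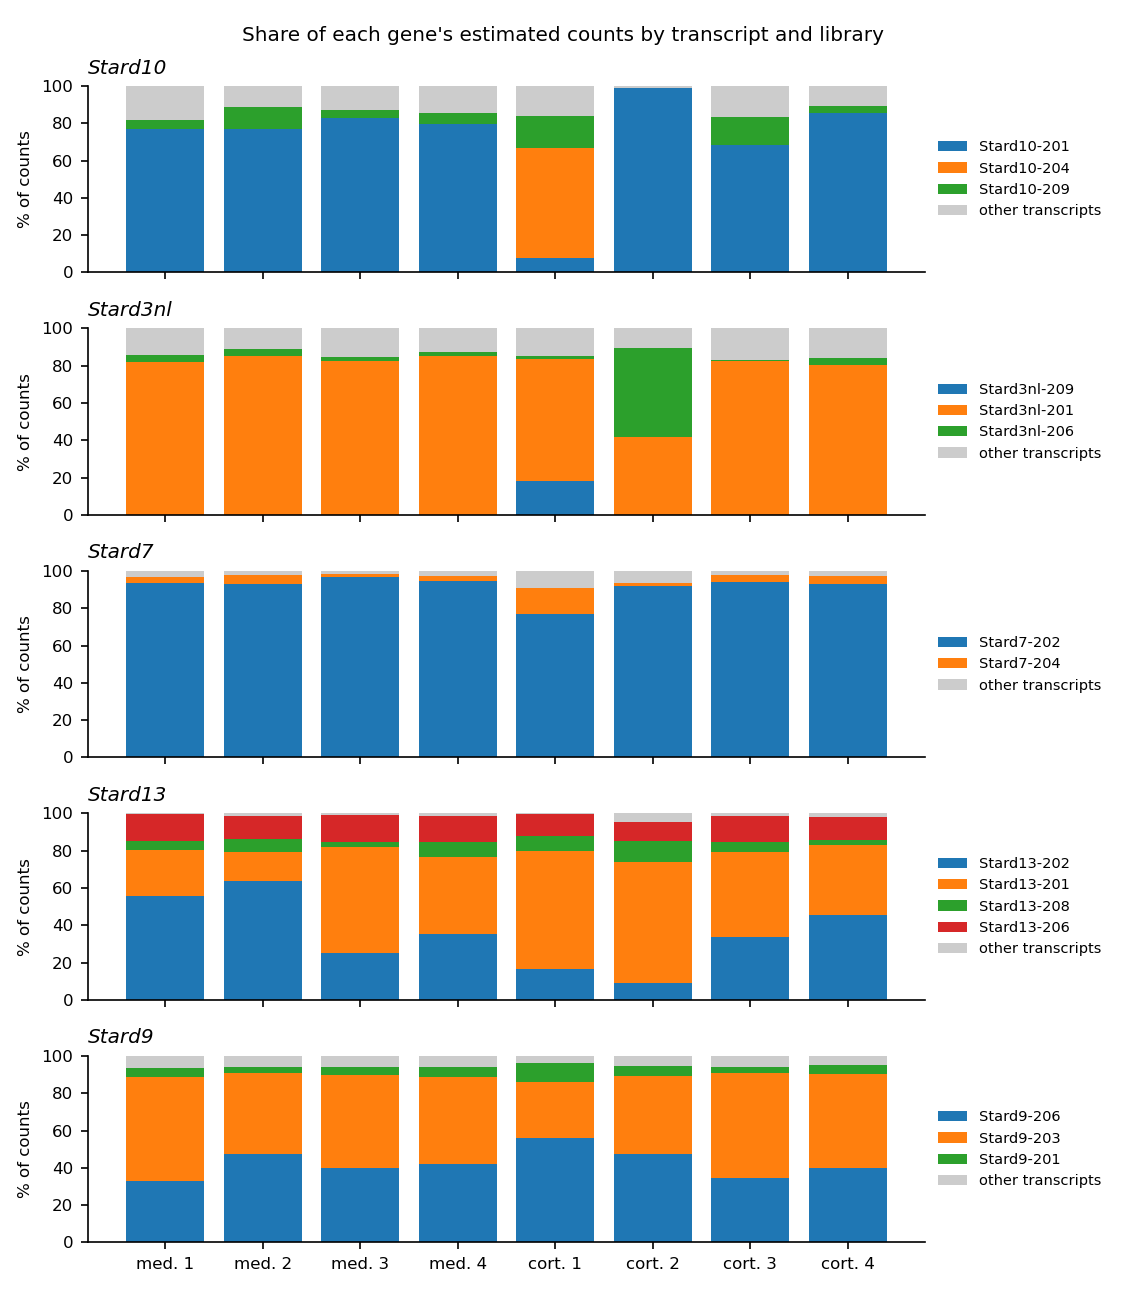
Share of each gene's estimated counts assigned to its named transcripts (percent, 0 to 100) in each of the 8 libraries, 1 panel a gene. Bar segments are transcripts; corticosterone replicates 1 and 2 carry the segments that stand apart, such as Stard10-204 at 58.9% and Stard3nl-206 at 47.4%.

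The other proteins of lipid transfer, which lack a START domain, were counted from a list of 46 genes. This list, the other START domain genes and the lists below were chosen with earlier results of these data known. Their p-values are therefore given as a description, and the genes named from the lists were picked by their calls or p-values. Of the 44 tested, 18 rose and 6 fell, and their median log2 fold change was 0.08, beside 40.1% of all tested genes called and a median of -0.00 (15 rose and 7 fell in the 6 libraries). Tex2, a lipid transfer protein of contacts with the endoplasmic reticulum, rose from 63.4 ± 2.89 to 121 ± 2.71 CPM (1.91-fold, edgeR adjusted p = 3.5e-10). C2cd2l, a phosphatidylinositol carrier at the plasma membrane, rose 1.85-fold (edgeR adjusted p = 1.41e-09), and Esyt1, a calcium-regulated tether, 1.35-fold (edgeR adjusted p = 8.43e-08). The genes that fell were Gramd1a, Mospd2, Osbpl10, Osbpl5, Osbpl6 and Vps13a.

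Genes of sterol regulation were divided in direction. Of 34 tested, 7 rose and 6 fell, beside 40.1% of all tested genes called, with the median at -0.00 (6 rose and 4 fell in the 6 libraries). Lipa, the lysosomal acid lipase that frees cholesterol from its esters, rose 1.59-fold (edgeR adjusted p = 9.07e-09). Nceh1, a cholesterol ester hydrolase, fell to 0.745-fold (edgeR adjusted p = 2.88e-06). Classical SREBP target genes lay on both sides: Hmgcs1 and Lss rose, as did Stard4, while Insig1 fell.

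Of 27 tested genes of phosphatidylcholine synthesis and mitochondrial phospholipids, 5 rose and 4 fell, beside 40.1% of all tested genes called, and the median log2 fold change was 0.03 (6 rose and 4 fell in the 6 libraries). Lpcat1, a lysophosphatidylcholine acyltransferase, rose 1.23-fold (edgeR adjusted p = 5.55e-07), and Cept1, which makes phosphatidylcholine in its last step, rose 1.32-fold (edgeR adjusted p = 5.88e-06). Chkb, Slc44a2 and Lpcat4 also rose. Pink1, a kinase of damaged mitochondria, fell to 0.813-fold (edgeR adjusted p = 7.7e-05), and Pcyt1a, Pcyt1b and Lpcat3 fell too.

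Beside the rise of the ceramide carrier Col4a3bp, 5 of 22 tested genes of ceramide and sphingomyelin metabolism rose and 7 fell, beside 40.1% of all tested genes called (5 rose and 6 fell in the 6 libraries). Sgms1, the Golgi sphingomyelin synthase that uses the ceramide CERT delivers, rose 1.67-fold (edgeR adjusted p = 1.35e-10), while its plasma membrane relative Sgms2 fell to 0.543-fold (edgeR adjusted p = 3.86e-07). Acer2, a Golgi ceramidase, rose 2.31-fold (edgeR adjusted p = 1.95e-08). Kdsr, Cerk and Sphk1 were the other risers, Sphk1 from 0.145 to 1.93 CPM. Acer3, Cers4, Degs1, Sgpl1, Sptlc2 and Ugcg were the others that fell, and the list's median was -0.05.

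Around Stard8 and Stard13, 16 of 39 tested small GTPases, their regulators and DLC partners rose and 8 fell, beside 40.1% of all tested genes called, and the list's median was 0.02 (14 rose and 7 fell in the 6 libraries). Tns1, a focal adhesion protein that binds the DLC proteins, rose from 313 ± 7.91 to 885 ± 24.9 CPM (2.83-fold, edgeR adjusted p = 1.17e-12). Rhob, an endosomal small GTPase, rose from 106 to 177 CPM (edgeR adjusted p = 1.76e-09), and Vcl, the adhesion protein vinculin, rose 1.40-fold (edgeR adjusted p = 4.77e-09). The genes that fell were Arhgap18, Arhgap35, Arhgef12, Arhgef28, Cav1, Ptk2, Rock2 and Tln1.

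Of 19 genes of steroid and oxysterol metabolism 11 were tested, and 5 rose and 3 fell, beside 40.1% of all tested genes called (5 rose and 2 fell in the 6 libraries). Ch25h, which makes 25-hydroxycholesterol, rose 1.41-fold, and Tspo, an outer mitochondrial membrane protein, 1.09-fold. The phenol sulfotransferase gene Sult1a1 went from 0.575 ± 0.141 CPM in medium to 43.4 ± 1.08 CPM, a 74.7-fold rise. Cyp46a1, which hydroxylates cholesterol, rose 2.49-fold from below 1 CPM, and Hsd11b2, which inactivates corticosterone, 2.40-fold between means below 1 CPM. Srd5a1 and Srd5a3, steroid and polyprenol reductases, fell to 0.632- and 0.850-fold, and Fdx1, an electron carrier of mitochondrial steroid enzymes, to 0.861-fold, which was not called in the 6 libraries (edgeR adjusted p = 0.0755).

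**Figure D5:**
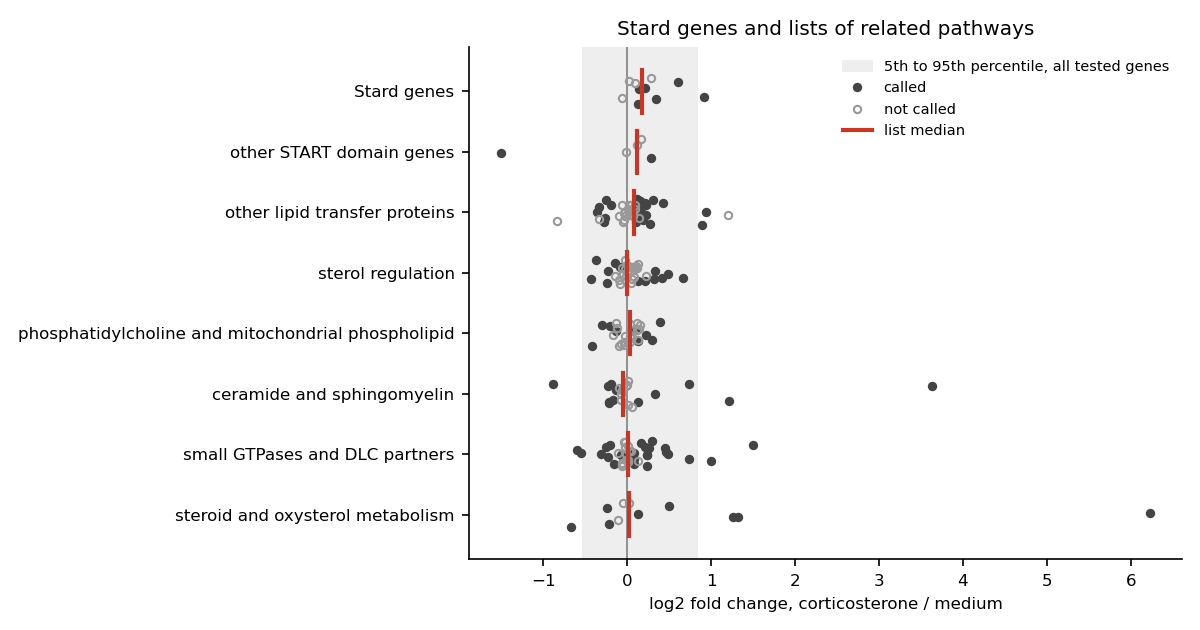
Log2 fold change, corticosterone minus medium, of each tested gene in the Stard family and the pathway lists. Each point is a gene, filled where called at an edgeR adjusted p under 0.05, and the bar is the list's median, from -0.05 for ceramide and sphingomyelin to 0.18 for the Stard genes.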

How the data were processed

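RNA was quantified by kallisto 0.46.1, per the submitters' processing notes, and the authors deposited estimated counts for transcripts and summed for genes, with TPM and transcript and effective lengths in other columns per the file headers. The sources used here do not give the index or strand settings. The gene table equals the transcript sums within 0.5 counts for 99.997% of genes. Deposited TPM were used only in alternatives, because the effective lengths of corticosterone replicates 1 and 2 differ. Estimated counts were rounded and tested with edgeR 4.0.16 (R 4.3.3, limma 3.58.1, DESeq2 1.42.0, Python 3.11.15): filterByExpr, TMM, quasi-likelihood F test, Benjamini-Hochberg adjustment over 13272 genes, called at an adjusted p under 0.05. The procedure was tested on simulated data. CPM are counts per 1000000 of TMM-adjusted library size. Per-length levels used 1 effective length per transcript.

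The members and all lists were chosen with earlier results of these data known. Named were all members, the 6 other START genes, the 4 check genes, per pathway list the 3 called genes with the smallest p and at least 1 CPM in a group, and called genes of a direction with 5 or fewer; other called genes listed by name were added after their values were seen. Alternatives were another scaling, no filter, each library left out, 6 libraries, a term for corticosterone replicates 1 and 2, a replicate block and transcript sums. Others were limma on log2(TPM + 0.5) or 0.1, limma on TPM recomputed with 1 effective length, and DESeq2. Same-numbered libraries did not deviate together, and the labels name no pairing. Some results of the sterol list are not reported here.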

Additional observations from a re-analysis of the deposited data

Results flagged for a closer look

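In 12 of 130 groups of 4 libraries searched, 1 library lay far from the other 3 by Dixon's gap test at the 95% level, which chance gives in about 1 in 20 groups. Stard3nl in medium replicate 4 was at 24.7 CPM (21.2 to 21.5 in the others). Stard8 in corticosterone replicate 4 was at 41.6 CPM (44.0 to 44.2), still above every medium library. Stard13 in corticosterone replicate 3 was at 73.5 CPM (67.6 to 68.6). Pctp in medium replicate 4 was at 14.3 CPM (11.7 to 12.1), and Acot12 in corticosterone replicate 1 was at 0.032 CPM (0 in the others). Tex2 and C2cd2l in corticosterone replicate 1 were at 125 CPM (119.8 to 120.4) and 54.0 CPM (56.9 to 57.4). Sphk1 and Srd5a3 in medium replicate 3 were at 0.050 CPM (0.170 to 0.184) and 30.8 CPM (33.0 to 33.3).

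The other 3 were transcript shares in the libraries whose effective lengths differ. Stard3nl-206 held 47.4% in corticosterone replicate 2 (0.426% to 3.74%), Stard7-202 held 76.8% in corticosterone replicate 1 (92.0% to 94.2%), and Stard10-204 held 58.9% in corticosterone replicate 1 (0 in the others).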

How the results depend on the processing

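Stard3, Stard5, Stard8 and Stard13 were called higher in all 16 alternatives on counts, with log2 fold changes of 0.31 to 0.36, 0.88 to 0.93, 0.57 to 0.63 and 0.18 to 0.25. Stard4 was called in 15 and Stard9 in 11 of them. DESeq2 called 4974 genes and 6 members, and leaving out 1 library gave 4753 to 5089 genes and 5 to 6 members. Same-numbered libraries did not deviate together (correlations of -0.04, 0.03, -0.05 and -0.05, none best with its own number), and the fit with the replicate block called 4913 genes and 5 members, without Stard9. Library size alone called 5556 genes, without Stard4 and Stard9, 39.4% of them higher against 48.6% with TMM, and gave Stard3nl -0.0086. The deposited TPM gave fewer calls: limma called 1511 genes with a pseudocount of 0.5 (61.3% higher) and 1518 with 0.1. Each of these called 2 members, Stard5 and Stard8. On TPM recomputed with 1 effective length, limma called 969 genes (31.8% higher) and 0 members. Stard3 was at 0.24, 0.24 and 0.037 and Stard13 at 0.26, 0.27 and 0.046 in these 3 fits, none of them called, and with 1 effective length Stard5 was at 0.60 and Stard8 at 0.33. With 1 effective length the all-gene median was -0.16 and Stard3nl (-0.11), Stard4 (-0.11), Stard9 (-0.12), Stard10 (-0.046), Pctp (-0.080) and Dlc1 (-0.15) changed sign. Stard7 was at 0.17, 0.18 and 0.052 in these 3 fits. Star, near 0, was at 0.088 without corticosterone replicate 2, 0.020 without replicate 4, 0.078 without medium replicate 1, 0.0068 in the 6 libraries, 0.0083 with the term, and 0.031 and 0.038 on TPM. The cause of these shifts was not tested. Stard6 and Acot11 had 21 to 56 and 5 to 41 counts a library, which limits their precision.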
